A study of Mus musculus with 2 samples.

Results

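The genes of the nuclear lamina and inner nuclear envelope were described in T cells of 1 mouse back skin library and 1 mouse lung library. There were 7 genes, Lmna, Lmnb1, Lmnb2, Lbr, Emd, Sun1 and Sun2, of the 27514 gene identifiers that both count tables list. They were listed by name, with the tissue difference of Lmna in these libraries already known, so that the levels by tissue, the balance of lamin types and the correlates of Lmna in skin are descriptions and support nothing by themselves. Levels were taken over cells with at least 1 UMI of Cd3d, Cd3e or Cd3g, the genes of the CD3 chains of the T cell receptor complex. After filters on genes, mitochondrial UMIs and doublet scores these were 6012 of the 6601 skin barcodes and 7841 of the 8730 lung barcodes.

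The skin cells came from adult Foxp3-CreERT2GFP mice and the lung cells from adult Foxp3-GFP mice of a strain that the labels name Tachilla, both on C57Bl/6. Both tissues were digested with collagenase, and the sort took cells with CD45, CD3, CD4 and GFP. Here GFP reports on Foxp3, whose product directs the fate of regulatory T cells (Tregs), cells that restrain immune responses. Libraries were made with 10x 3' v2 chemistry, in which each captured RNA molecule is counted once near its 3' end as a unique molecular identifier, or UMI. With 1 library per tissue there was no replicate and no test, and tissue, mouse line, library and gene annotation cannot be told apart. How many animals were pooled is not given in the sources used here.

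The nuclear lamina is a meshwork of intermediate filament proteins under the inner nuclear membrane. It is built from A-type lamins, which are splice forms of Lmna, and B-type lamins, encoded by Lmnb1 and Lmnb2. B-type lamins are made in most cells, keep a farnesyl anchor in the membrane and are tied to it through the lamin B receptor, whereas A-type lamins differ widely in amount between cell types and stiffen the nucleus. In T cells A-type lamin is known to be low in resting cells and to be made on activation. SUN proteins cross the inner membrane and join the lamina, through nesprins, to the cytoskeleton.

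Lmna lies on the minus strand of chromosome 3, and RefSeq (GRCm38.p6, the assembly also called mm10) gives it 2 start sites. The window of the upstream start site, chr3:88503303-88503602, is printed beside that of the B-type lamin gene Lmnb2, chr10:80918196-80918495, also on the minus strand, since these lamin genes differed most and least between the tissues. Each runs 5' to 3' on the strand of its gene, from 250 bases before to 50 bases after the start site. Capitals mark the AP-1 letters TGACTCA and the GC box letters GGGCGG or, on the other strand, CCGCCC. A second window of each gene, chr3:88493263-88493562 for Lmna and chr10:80906363-80906662 for Lmnb2, held neither set of letters and is not printed.
Lmna: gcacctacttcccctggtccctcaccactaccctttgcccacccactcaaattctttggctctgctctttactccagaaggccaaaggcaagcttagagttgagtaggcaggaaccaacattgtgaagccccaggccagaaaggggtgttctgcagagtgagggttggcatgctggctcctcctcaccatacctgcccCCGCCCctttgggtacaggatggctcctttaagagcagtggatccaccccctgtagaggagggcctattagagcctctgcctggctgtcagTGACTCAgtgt
Lmnb2: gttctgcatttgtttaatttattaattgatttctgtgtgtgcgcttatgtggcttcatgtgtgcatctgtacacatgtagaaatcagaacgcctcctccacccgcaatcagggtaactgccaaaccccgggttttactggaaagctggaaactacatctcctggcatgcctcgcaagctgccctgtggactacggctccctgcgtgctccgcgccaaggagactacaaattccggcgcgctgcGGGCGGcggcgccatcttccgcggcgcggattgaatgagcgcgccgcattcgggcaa
AP-1 is the family of Fos and Jun dimers that act early after a cell is stimulated. The AP-1 letters lie 39 bases downstream of the upstream Lmna start site. Read on either strand, they were found in 1 of the 9 windows of the 6 genes searched and in 5.2% (1709 of 32851) of all RefSeq windows of this length. Lmnb1 was not among the 6 genes, so its windows are not known to lack these letters. A match of letters is a description, and binding was not measured. GC boxes, the letters bound by Sp1 family factors, were found in 35.7% of all windows. The 2 windows have a GC content of 56.3% in Lmna and 55.3% in Lmnb2, against a median of 52.7% over all windows.

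The libraries were of similar depth, with 14486964 UMIs in the skin cells and 21487514 in the lung cells and a median of 2041 and 2338 UMIs per cell. Levels are shares of the summed UMIs in CPM, the usual scaling to a common library total, with exact 95% Poisson intervals that cover counting error only. The 5 T cell markers summed to 3794 CPM in skin and 3012 CPM in lung, but the Cd3 genes among them were used to pick the cells. Of the markers not used for this, Cd4 stood at 164 and 108 CPM and Lck at 511 and 465 CPM. Only Cd3e of the T cell markers was higher in lung, at 558 CPM in skin and 725 CPM in lung. Treg markers were present in both, and their 6 genes summed to 5398 and 1777 CPM. Foxp3 itself stood at 23.7 and 13.1 CPM. Ribosomal protein genes took 19.0% of the UMIs in skin and 38.3% in lung, which moves every other gene towards skin: the median log2 ratio of skin over lung over the 5686 genes that reached 20 CPM in one or both libraries was 0.37, and 0.07 after median-of-ratios scaling. Xist stood at 1222 CPM in skin with 1 UMI in lung, and Ddx3y at 75.9 CPM in lung with 0 UMIs in skin, so that the sex of the mice also differs with tissue.

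Lmna, the A-type lamin gene (chromosome 3, 88480147 to 88509956, minus strand), was abundant in the skin cells and low in the lung cells. In skin it stood at 1874 CPM (1852 to 1897), 27154 UMIs. The lung cells held 442 UMIs, or 20.6 CPM (18.7 to 22.6). Among all 27514 genes it ranked 90 by level in skin and 4478 in lung. The ratio of these levels was 91.1 (82.9 to 100.3), the 99.95th percentile of the 5686 genes. It was 6.20 as log2 of CPM + 5, a scale that understates differences of low genes, 5.90 after median-of-ratios scaling and 5.92 with totals that leave out mitochondrial and ribosomal protein genes. A Lmna UMI was found in 90.5% of skin cells (89.8 to 91.3, exact binomial) and in 3.93% of lung cells (3.51 to 4.38), or in 75.8% and 1.64% after every cell was thinned to 1000 UMIs. The thinned share of 1.64% is too low to tell cells that make Lmna from those that hold free RNA. The annotated transcripts Lmna-201 and Lmna-203 start at 88503335 and 88503307 and end at 88481148 and 88483205 of chromosome 3 (GENCODE M21), and the gene counts do not separate lamin A from lamin C.

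**Figure D1:**
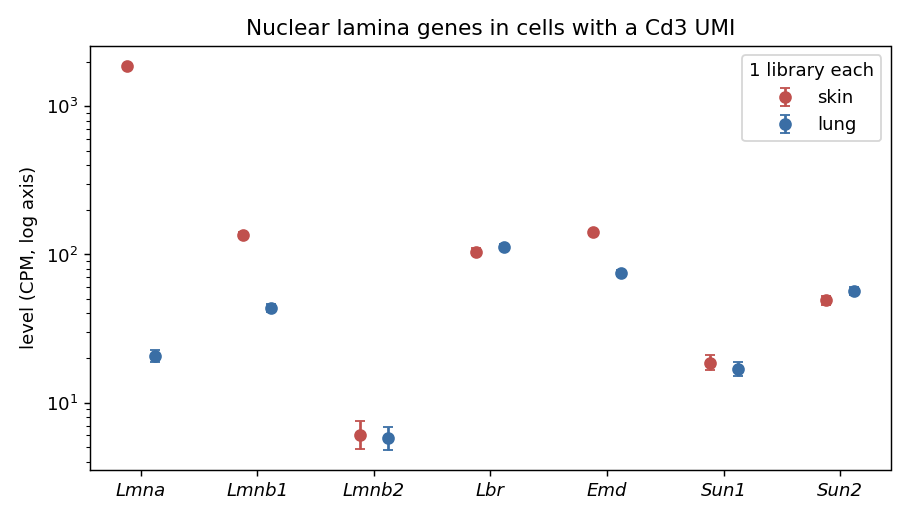
Level of each gene in the summed skin cells (red) and lung cells (blue), in CPM on a log axis, with exact 95% Poisson intervals, 1 library per tissue. Lmna lies at 1874 CPM in skin and 20.6 CPM in lung, Lmnb1 and Emd are higher in skin by smaller ratios, and Lmnb2, Lbr, Sun1 and Sun2 lie close together in the 2 tissues.

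Lmnb1, the B-type lamin gene on chromosome 18 (56707813 to 56753424, plus strand), was at 136 CPM (130 to 142) in skin, against 43.4 CPM (40.7 to 46.3) for lung, a ratio of 3.12 (2.89 to 3.38). A UMI of it was seen in 23.9% of the skin cells and in 8.05% of those from lung, and in 11.5% and 2.83% after thinning. Its ratio depended on dividing cells, as described below. Lmnb2, the other B-type lamin gene (chromosome 10, 80901203 to 80918245, minus strand), gave 88 UMIs in skin, or 6.07 CPM (4.87 to 7.48), and 123 UMIs in lung, or 5.72 CPM (4.76 to 6.83). Its ratio of 1.06 had an interval from 0.798 to 1.41, so no difference was detectable at this depth. Skin cells held 22.3 Lmnb1 UMIs for each Lmnb2 UMI and lung cells 7.59. Lmnb1 was thus the main B-type lamin gene by UMIs in both tissues, although capture near the 3' end can differ between genes.

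Lbr encodes the lamin B receptor, a membrane protein that binds B-type lamins and heterochromatin. The gene lies on the minus strand of chromosome 1 (181815335 to 181843046). Skin cells held it at 105 CPM (99.4 to 110.0), against 113 CPM (108 to 117) for lung cells, where it had the most UMIs of the 7 genes. Its level in CPM differed little between the tissues, with a lung over skin ratio of 1.08 (1.01 to 1.15). As log2 of skin over lung Lbr was at -0.11, and at -0.42 after median-of-ratios scaling. Outside cycling cells the levels were 98.9 and 98.4 CPM. Lbr ends within the end of Dnah14 on the opposite strand, a gene that shares bases with it in the annotation.

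Emd encodes emerin, an inner membrane protein with a LEM domain, which binds lamins and a small chromatin protein. Its level was 141 CPM (135 to 147) in skin, against 74.8 CPM (71.2 to 78.5) for lung, a ratio of 1.89 (1.77 to 2.02). On the log2 scale this was 0.87, and 0.56 after median-of-ratios scaling. Emd lies on chromosome X (74254687 to 74261548, plus strand), and the 175 X-linked genes measured had a median log2 ratio of 0.50 (quartiles 0.12 and 0.87) against 0.36 for 5492 autosomal genes. The pseudogene Gm14686 lies on the same strand within the 3' end of Emd (74261032 to 74261374) and is not among the gene identifiers that both tables list. Whether only 1 of the tables lists it was not examined, so it is not known if annotation differs between the tissues there. Emd lay at the upper quartile of the genes of its chromosome, and the sex of the mice cannot be told apart from the tissue.

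The SUN proteins differed little. Sun1 (chromosome 5, 139200637 to 139249840, plus strand) was at 18.6 CPM (16.5 to 21.0) in skin, against 16.8 CPM (15.2 to 18.7) for lung, with a ratio of 1.11 (0.941 to 1.30) that includes no difference. Sun2 (chromosome 15, 79724070 to 79742536, minus strand) was at 49.0 CPM (45.5 to 52.7) in skin, against 56.7 CPM (53.5 to 59.96) for lung, a lung over skin ratio of 1.16 (1.05 to 1.27). On the log2 scale Sun2 was at -0.19, at -0.49 after median-of-ratios scaling and at 0.02 after thinning. In both genes an antisense gene overlaps the body, and the sources used here do not say whether counting used strand.

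Of the 7 genes, 5 reached 20 CPM in either library, all but Lmnb2 and Sun1. At least 2-fold higher in skin, on the log2 scale of CPM + 5, were 2 genes, Lmna and Lmnb1. At this threshold 15.2% of all 5686 genes were higher in skin. No member was at least 2-fold higher in lung, against 4.96% of all genes. The genes were chosen with the Lmna difference known, so the count of members is not read against these shares.

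The balance between lamin types differed between the tissues. Of the UMIs of the 3 lamin genes, Lmna made up 92.97% (92.67 to 93.26, exact binomial) in skin and 29.5% (27.2 to 31.9) in lung. This came to 13.2 A-type UMIs for each B-type UMI in skin and to 0.419 in lung. The share is a ratio within each cell pool, so it does not depend on the scaling of the libraries. Across the T cell classes plotted, the share in skin ran from 83.6% in cycling cells to 93.9% in cells with a Foxp3 UMI, and in lung from 7.74% in cycling cells to 46.2% in cells with a UMI of Areg, the gene of the repair factor amphiregulin. These plotted ranges of the 2 tissues did not overlap. The fibroblast-rich cells, defined below, did not keep this gap, with a share of 95.7% (93.3 to 97.4) in skin and 96.7% (88.7 to 99.6) in lung. Lung endothelium-rich cells had a share of 90.0% (79.5 to 96.2) and lung epithelium-rich cells one of 70.4% (49.8 to 86.2). Myeloid-rich cells had shares of 85.4% (81.7 to 88.6) in skin and 65.0% (40.8 to 84.6) in lung. The lung values rest on few lamin UMIs, 61 in fibroblast-rich, 60 in endothelium-rich, 27 in epithelium-rich and 20 in myeloid-rich cells.

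**Figure D2:**
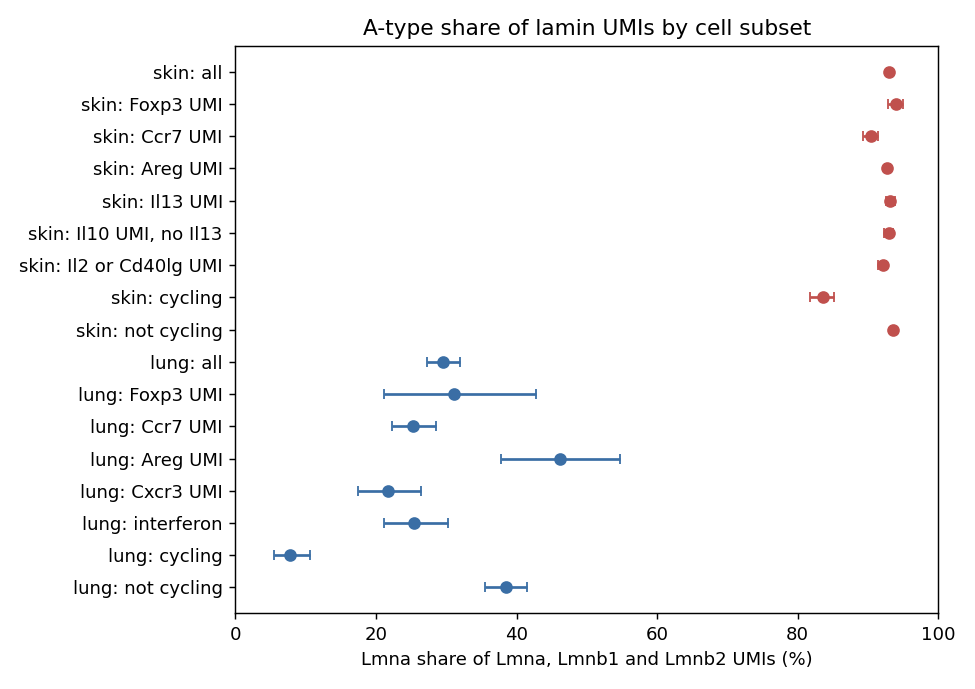
Lmna share of all Lmna, Lmnb1 and Lmnb2 UMIs, in percent, in classes of skin cells (red) and lung cells (blue), with exact 95% binomial intervals. The skin classes shown lie between 83.6% and 93.9% and the lung classes shown between 7.74% and 46.2%, with cycling cells lowest in both tissues.

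Cells with at least 2 UMIs of cell cycle genes were counted as cycling, 180 in skin and 220 in lung. They were deeper than the other cells, with a median of 4616 UMIs against 2018 in skin and 6880 against 2313 in lung. In lung they held Lmnb1 at 248 CPM (224 to 274) against 27.4 CPM in the other cells, a ratio of 9.07 (7.94 to 10.4), and in skin at 336 CPM (300 to 376) against 122 CPM, a ratio of 2.75 (2.43 to 3.11). Lbr followed the same order, with ratios of 3.04 (2.74 to 3.37) in lung and 1.92 (1.63 to 2.25) in skin. Lmna did not, at 21.8 against 20.5 CPM in lung and 1730 against 1884 CPM in skin. Skin and lung thus came close for Lmnb1 among cycling cells, with a skin over lung ratio of 1.35 (1.16 to 1.57), and lay 4.45-fold apart (4.04 to 4.92) among the other cells. For Lmna the ratio was 79.2 (56.5 to 115) among cycling and 92.0 (83.5 to 102) among the other cells.

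**Figure D3:**
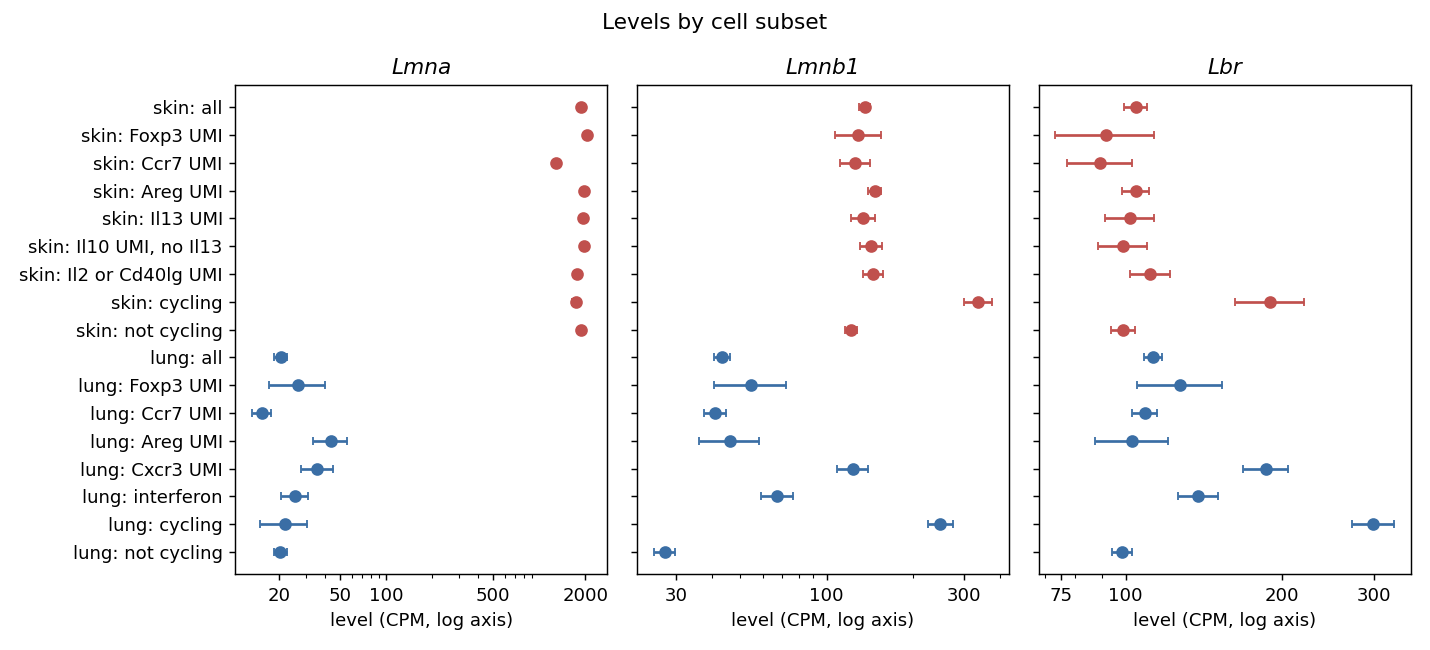
Level of Lmna, Lmnb1 and Lbr in classes of skin cells (red) and lung cells (blue), in CPM on log axes with different ranges, with exact 95% Poisson intervals. Lmna separates the tissues in every class shown, whereas Lmnb1 and Lbr are highest in the cycling cells of both.

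Within skin, Lmna was lower in cells with a UMI of Ccr7, the chemokine receptor gene of lymphoid-homing T cells. The 704 such cells held it at 1282 CPM (1235 to 1331) against 1978 CPM in the others. Even so they lay 82.3-fold (71.1 to 95.7) above the Ccr7 cells of lung. Cells with Il13, a type 2 cytokine gene, with Il10 and no Il13, or with Il2 or Cd40lg, which mark activated conventional T cells, stood at 1922, 1951 and 1769 CPM. The 327 cells with a Foxp3 UMI held 2063 CPM (1972 to 2157) and the 5685 without one 1861 CPM (1838 to 1884). Lmna was therefore high in each of these skin classes. As a Foxp3 UMI was rare in sorted cells, a cell with none cannot be called a cell without Foxp3.

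Within lung, Lmna was at a far lower level in every class, and again lower in cells with a Ccr7 UMI than in the others. The 4342 cells with a Ccr7 UMI held Lmna at 15.6 CPM (13.5 to 17.9) against 27.4 CPM in the others. The 460 cells with an Areg UMI held 43.6 CPM (33.7 to 55.4) against 18.8 CPM, and the 450 cells with a UMI of Cxcr3, a receptor of type 1 effector cells, 35.8 CPM (28.2 to 44.9) against 18.9 CPM. Areg cells of skin still lay 45.0-fold (35.3 to 58.2) above those of lung. The lung Areg cells held 66 Lmna UMIs, and 8.04% of them held any. Lung cells rich in other types' markers, defined below, held 87 of the 442 Lmna UMIs where they had a Cd3 UMI. They were not left out of these classes, and their part in the class differences was not tested. Lmnb1 in the lung Cxcr3 cells was 123 CPM against 34.8 CPM, but 20% of these cells were cycling, and without those the level was 63.6 CPM (51.1 to 78.2), against 27.4 CPM over all lung cells outside the cycle.

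Early response genes, which are induced soon after stimulation and are known to respond to tissue digestion, moved with Lmna. They took a median of 2.30% of UMIs per cell in skin and 0.765% in lung. In lung the 2288 cells with over 1% of UMIs in these genes held Lmna at 39.0 CPM (33.9 to 44.7) and the 5553 other cells 14.5 CPM (12.7 to 16.5). In skin the 5762 cells with over 1% held 1925 CPM (1902 to 1949) and the 250 others 1051 CPM (983 to 1122). The A-type share of lamin UMIs was 54.2% in the high and 21.0% in the low cells of lung, and 93.3% and 85.2% in those of skin. Outside cycling cells these shares were 55.9% and 29.3% in lung, and closer together in skin, at 93.7% and 90.1%. Compared among cells with at most 1%, skin lay 72.6-fold (62.8 to 84.2) above lung in Lmna. Among cells with over 1%, which are most of the skin cells, it lay 49.3-fold (43.0 to 56.8) above, against 91.1-fold over all cells. Over all cells Lmnb1 went the other way in both tissues. In lung it was at 27.0 CPM in the high and 48.8 CPM in the low cells, where cycling cells made up 0.656% and 3.69%. Outside the cycle its lung levels were 24.7 (20.6 to 29.3) and 28.4 CPM (25.7 to 31.2). In skin it was at 133 CPM in the high and 175 CPM in the low cells, where cycling cells made up 2.59% and 12.4%. Outside the cycle its skin levels were 123 (117 to 129) and 107 CPM (83.4 to 135). What part the response genes play in the tissue difference was not tested.

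Markers of other cell types were present in both libraries. The 7 fibroblast markers, all detected in both, summed to 2326 CPM in skin and 84.5 CPM in lung, and the 7 lung epithelium markers to 62.9 CPM in skin and 4087 CPM in lung. In skin the epithelium genes Sftpc, Sftpa1, Sftpb, Scgb1a1 and Scgb3a2 were at 0. The 8 myeloid markers summed to 958 and 583 CPM, and the 6 endothelial markers to 69.6 and 243 CPM. In skin the 80 cells with 10 or more fibroblast UMIs held Lmna at 885 CPM (802 to 974), below the 1874 CPM of all cells, and they include cells with a Cd3 UMI. In lung the 37 fibroblast-rich cells held 276 CPM (210 to 357) and the 135 endothelium-rich cells 156 CPM (117 to 203), above the 20.6 CPM of all cells. Lmna was thus higher in skin outside the T cell classes too. Its skin over lung ratio was 3.20 (2.43 to 4.28) in fibroblast-rich and 7.69 (4.44 to 14.6) in myeloid-rich cells, against 91.1 in all cells with a Cd3 UMI. Without cells holding 3 or more UMIs of another type's markers, Lmna stood at 1953 CPM in 5081 skin cells and at 17.3 CPM in 6952 lung cells, so the gap was as large without them.

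Lmna UMIs varied between skin cells by more than sampling alone. Among skin cells thinned to 1000 UMIs, 24.2% held no Lmna UMI, 24.98% held 1, 19.6% held 2 and 31.2% held 3 or more, up to 12. The mean was 1.97 UMIs and the variance 1.81 times the mean, where sampling alone gives a ratio near 1. In lung 98.4% of cells held none. For the other 6 genes the ratio lay between 0.98 and 1.09 in both tissues, and with means under 0.16 UMIs per cell little spread could be seen. Pairs of the 7 genes hardly moved together, with Pearson's r between Lmna and Lmnb1 of 0.04 over 6012 skin cells.

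The genes whose UMIs followed Lmna across skin cells were described by Pearson's r of log2(UMIs + 1) in the 6012 thinned cells, which share 1 library and 1 depth. Of 2722 genes seen in at least 5% of cells, 30 had an r of at least 0.1, or 1.1%, and 45 had one of -0.1 or below. The median r was 0.003. None of the 4 other members measured there was among them. These correlations are weak in sparse counts and are given as a description with no p. The highest was that of Vim, at 0.30, the gene of vimentin, the intermediate filament protein of the cytoplasm. Crip1, a small LIM domain protein gene, followed at 0.30, Lgals1, which encodes galectin-1, at 0.22, and the calcium-binding S100 genes S100a10, S100a6, S100a11 and S100a4 at 0.20, 0.19, 0.16 and 0.14. Ahnak, a giant scaffold protein gene, was at 0.15 and Samsn1, an adaptor gene, at 0.15.

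Of the 15 highest, 6 others were genes of the early response, a list of which 21 genes were measured here. These 6 reached an r of 0.1, the median of the 21 was 0.05, and Jun and Hspa1a lay below 0, both at -0.05. Of other AP-1 genes, Fos was at 0.07, Junb at 0.06, Fosl2 at 0.04 and Atf3 at 0.02. Jund was at 0.22, Klf6 at 0.16, Nfkbia, which encodes an NF-kB inhibitor, at 0.15, the phosphatase gene Dusp1 at 0.14, the nuclear receptor gene Nr4a1 at 0.14 and Fosb at 0.13. Among the 250 skin cells low in early response genes the values of several genes differed. Vim, Crip1, Lgals1 and S100a6 were at 0.43, 0.40, 0.37 and 0.36, whereas Klf6 was at 0.11, Jund at 0.06, Nr4a1 at 0.05, Nfkbia at -0.02 and Dusp1 at -0.03. Those cells were picked for low levels of these genes, which narrows their range. With so few cells r also varies more, and 340 of 2737 genes reached 0.1. Of the 15 genes, 7 were again among the 15 highest there.

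**Figure D4:**
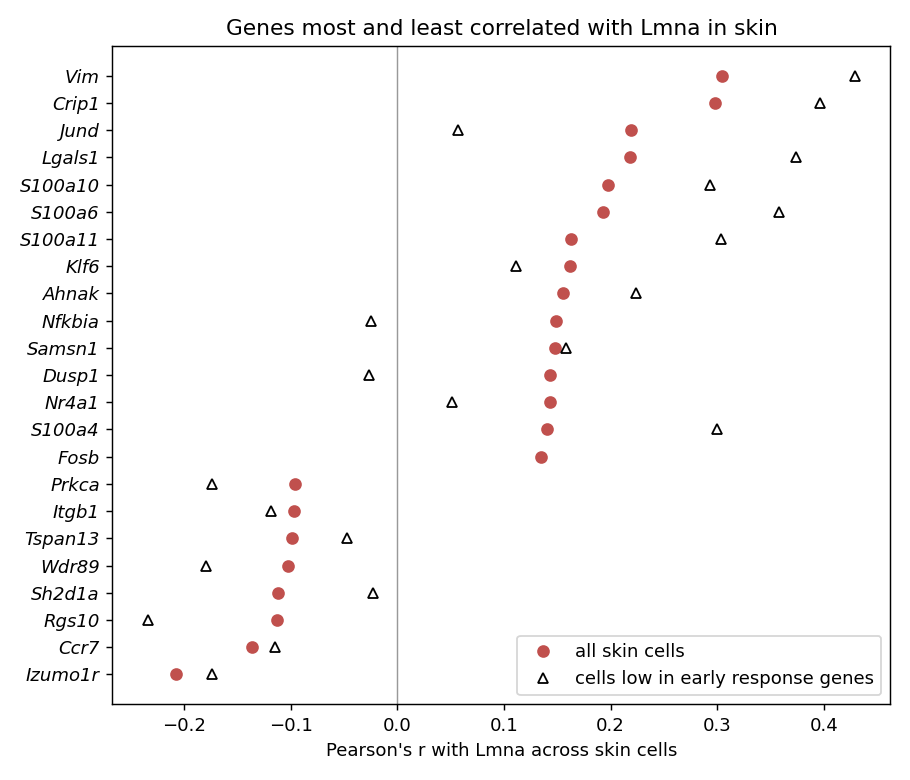
Pearson's r with Lmna across skin cells thinned to 1000 UMIs, for the 15 highest and 8 lowest genes under the naming rule, over 6012 cells (red points) and over the 250 cells low in early response genes (open triangles, none for Fosb). Vim and Crip1 are highest in both, whereas Jund, Nfkbia and Dusp1 lie near 0 in the low cells.

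Genes with the lowest r are given after T cell receptor, ribosomal protein and the other classes of the naming rule are left out. By r the 8 named here ranked from 2722, the lowest, to 2673, and genes of the classes left out lie between them. The lowest was Izumo1r, at -0.21, which encodes folate receptor 4, a surface protein of Tregs and follicular T cells. Ccr7 was at -0.14, Rgs10 and Sh2d1a, both signalling genes, at -0.11 each, Wdr89 at -0.10, Tspan13 at -0.10, the integrin gene Itgb1 at -0.10 and the kinase gene Prkca at -0.10. In levels, the gaps of Izumo1r and Ccr7 were wider than that of any of the 15 positive genes. From the 1454 skin cells with no Lmna UMI to the 1876 with 3 or more, Izumo1r ran from 287 to 186, 93.2 and 33.1 CPM, 8.68-fold lower (6.63 to 11.5). Ccr7 ran from 212 to 122, 64.4 and 34.7 CPM, 6.13-fold lower (4.68 to 8.14). Cells rich in Lmna thus held fewer UMIs of both genes.

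Across the same 4 classes Vim stood at 1673, 2189, 2665 and 3210 CPM, 1.92-fold higher in the last (1.83 to 2.01). Crip1 was 1.79-fold higher (1.74 to 1.84), Fosb 1.94-fold (1.72 to 2.20) and Klf6 1.77-fold (1.65 to 1.89). Areg was 1.41-fold higher (1.33 to 1.502), Cd44, an activation and memory gene, 1.51-fold (1.35 to 1.70) and Itgae, the gene of a tissue-retention integrin, 1.40-fold (1.24 to 1.59). Foxp3 did not differ detectably, at 1.10-fold (0.714 to 1.71). Of the members, Lmnb1 stood at 102, 122, 136 and 142 CPM, 1.38-fold higher (1.13 to 1.70), and Lbr, Emd, Sun1 and Sun2 had intervals that include 1. These levels come from 1 random thinning. The r of Lmnb1 with Lmna was 0.044 in it and 0.015 in a second thinning, a spread that the interval does not cover. The share of cycling cells was 3.44%, 2.996%, 3.47% and 2.35%, and their part in the Lmnb1 levels was not tested.

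**Figure D5:**
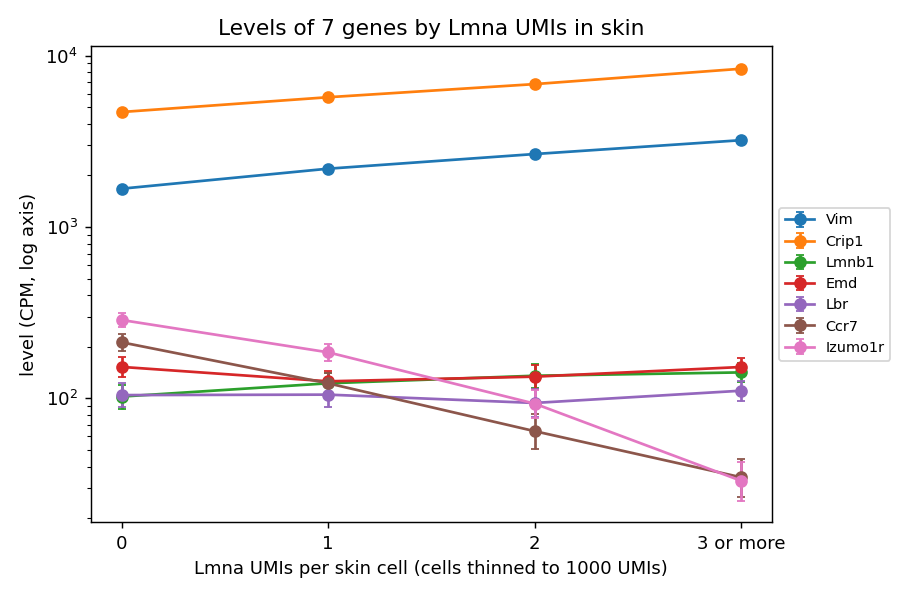
Level of 7 genes, in CPM on a log axis with exact 95% Poisson intervals, in skin cells grouped by their Lmna UMIs after thinning to 1000 UMIs (1454, 1502, 1180 and 1876 cells). Vim and Crip1 increase, Izumo1r and Ccr7 decrease, Lmnb1 is 1.38-fold higher in the last class than in the first, and Emd and Lbr have intervals that include no difference.

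Other measures moved with these classes. Summed fibroblast markers stood at 1684, 1097, 906 and 523 CPM, so cells rich in Lmna held fewer of them. The early response genes took a median of 2.002%, 2.22%, 2.41% and 2.56% of UMIs, and ribosomal protein genes 20.9%, 19.1%, 17.8% and 16.9%. Median UMIs before thinning were 2131, 2041, 2050 and 1994. Their part in the gene patterns was not tested. As the classes are cut from Lmna counts of single cells, sampling places some cells in the wrong class.

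Partners of the lamina showed the same mixed picture between tissues. The counts of the lists below use the same 2-fold threshold, which 15.2% of all genes passed towards skin and 4.96% towards lung. Among LINC complex and torsin genes 1 of the 4 measured was at least 2-fold higher in skin and none was in lung. The median log2 ratio of these 4 was 0.84, against 0.37 over all genes. That gene was Syne2, which encodes nesprin-2, the outer membrane partner of SUN proteins, at 43.0 CPM in skin and 3.35 CPM in lung, a ratio of 12.8 (10.0 to 16.6). Tor1aip1, which encodes the lamina-associated protein LAP1, stood at 108 and 53.6 CPM, within 2-fold on the scale with 5 CPM added. Among 5 LEM domain and inner membrane genes 1 was higher in skin, none was in lung, and the median was 0.61. The 1 gene was Tmpo, the gene of the lamina-associated polypeptide 2 proteins, at 158 and 71.1 CPM.

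Lamin B and prelamin A are farnesylated, and Zmpste24, the protease that trims prelamin A, and Fnta, a subunit of farnesyltransferase, were the 2 of 3 measured processing genes higher in skin. They stood at 55.4 and 47.5 CPM in skin and at 20.3 and 20.4 CPM in lung. After median-of-ratios scaling none of these 3 genes, and none of the 5 LEM domain genes, was 2-fold apart. Nuclear pore genes were close to even, with a median of 0.18, or -0.12 after median-of-ratios scaling. Of 14 genes 1 was higher in skin, Nup93 at 21.5 against 6.98 CPM, and 1 in lung, Nup98 at 10.2 against 37.8 CPM. After that scaling none was 2-fold higher in skin and 1 was in lung. Heterochromatin partners had none of 7 genes 2-fold apart in either direction and a median of 0.41. Cbx5, which encodes the heterochromatin protein HP1 alpha, stood at 26.2 and 12.7 CPM.

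Cytoplasmic filament genes differed more. Of 4 measured intermediate filament and linker genes 3 were higher in skin and none was in lung. The median was 2.02, or 1.74 after median-of-ratios scaling. Vim stood at 2524 CPM in skin and 401 CPM in lung, a ratio of 6.29 (6.15 to 6.44). Plec, which encodes plectin, a linker of vimentin to the nucleus and to actin, stood at 157 and 25.5 CPM, and Dst, a related linker, at 38.7 and 9.12 CPM, whereas Macf1, of the same family, was at 74.5 and 73.9 CPM. Of 8 genes of the actin, SRF and YAP list 4 were higher in skin and none was in lung. The median was 0.89, and 1 gene remained after median-of-ratios scaling. This was Ahnak, at 677 and 62.7 CPM. Of the 26 early response genes 15 were higher in skin and 3 were in lung. The median was 1.72. The list was led by Nr4a3 at 215 and 17.0 CPM, and the 3 higher in lung were Hspa1a, Hspa1b and Rhob.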

How the data were processed

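The submitters deposited matrices of unscaled UMI counts, with genes and cell barcodes as the 2 dimensions. Per the file headers the lung table was written by software version 3.0.2, and per the submitters' processing notes Cell Ranger and mm10 were used. Other parts of the deposited files, barcodes and gene lists, are names and not a measurement. A second lung table, whose 8626 barcodes all occur in the first, was not used. The skin and lung tables share 82 barcodes, or 1.24% of the skin barcodes. Barcodes under 200 genes or over 10% mitochondrial UMIs (133 in skin, 89 in lung) were removed. Scrublet in scanpy 1.11.5 called 0.0773% and 0.0463% of cells, too few to have worked, so the 6% with the highest scores were removed, which left 6079 and 8123 cells, of which 98.9% and 96.5% held a Cd3 UMI.

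Counts of these cells were summed per tissue and divided by their total over shared genes. Called genes were at least 2-fold apart as log2 of CPM + 5, with at least 20 CPM in either library. Intervals are exact at 95% (Poisson for levels, binomial for ratios and shares) and cover counting error only. Thinning to 1000 UMIs left out 0 skin and 76 lung cells. A count of 0 allows up to 0.207 CPM in skin and 0.140 CPM in lung. The scripts were tested on simulated data. Of the symbols listed, Mrtfb, Ccn1 and Ccn2 were matched to the files through RefSeq as Mkl2, Cyr61 and Ctgf, and Mrtfa was not matched. Members, lists and thresholds were chosen with earlier results of these data known. Named genes were the 7 members, up to 4 genes per list with the widest ratio and at least 20 CPM, and the 15 highest and 8 lowest correlates of Lmna in skin. These leave out T cell receptor, immunoglobulin, mitochondrial, haemoglobin and ribosomal protein genes and Gm or Rik models. Other genes were named after their values were seen. The cells rich in another type's markers, those with 10 or more UMIs of 1 marker list, were defined after the data were seen.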

Additional observations from a re-analysis of the deposited data

How the results depend on the processing

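The log2 ratio of Lmna, 6.20, stayed between 5.76 and 6.46 under all 11 alternatives. It was 5.90 after median-of-ratios scaling, 5.92 without mitochondrial and ribosomal genes, 6.02 in cells with a Foxp3 UMI, 6.46 without cells holding other types' markers, 5.76 in cells low in early response genes, 6.43 after thinning and 6.44 with 1 CPM added. The A-type share differed by 63.5 percentage points, by 66.0 with at least 2 Cd3 UMIs, 55.1 without cycling cells and 59.6 after thinning. The 2 members called higher in skin and 0 in lung were the count under each of the 11 alternatives. Lbr was at -0.11. It was at -0.42 after median-of-ratios scaling, -0.49 without mitochondrial and ribosomal genes and -0.45 in cells with a Foxp3 UMI. Without cycling cells it was at 0.01, and in cells low in the early response list at 0.04. Lmnb2 and Sun1, at 0.05 and 0.11, turned to -0.13 and -0.14 after median-of-ratios scaling, and none of these is a call. Of the 15 highest correlates of Lmna, 7 were shared in the 250 cells low in early response genes. Among all 5686 genes, those 2-fold apart numbered 864 higher in skin and 282 in lung, and 559 and 423 after median-of-ratios scaling, an alternative chosen after seeing the data. The share on the skin side was 75.4% and 56.9%. Low depth limits Lmnb2, Sun1 and lung Lmna, at 123, 362 and 442 UMIs in lung. No paired analysis was possible because each tissue has 1 sample.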
